A study of Mus musculus with 20 samples.

Results

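The genes described here are 9 ligands of sensory neurons and their glia, out of 78258 genes in the deposited count table. They are the neurotrophins Bdnf (ENSMUSG00000048482.15), Ntf3 (ENSMUSG00000049107.14) and Ntf5 (ENSMUSG00000074121.4), the GDNF-family ligands Gdnf (ENSMUSG00000022144.5), Artn (ENSMUSG00000028539.15) and Nrtn (ENSMUSG00000039481.6), and the neuregulins Nrg1 (ENSMUSG00000062991.10), Nrg2 (ENSMUSG00000060275.15) and Nrg3 (ENSMUSG00000041014.18). They were chosen by symbol for their function, and each was found once in the table through its Ensembl identifier. All 9 are protein-coding genes, on chromosomes 2, 6, 7, 15, 4, 17, 8, 18 and 14 in the order given.

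RNA was measured in dorsal root ganglia (DRG), which hold the cell bodies of sensory neurons with their satellite glia and Schwann cells, from lumbar levels 4 to 6 of 10 male mice. In every mouse the sciatic nerve of 1 side had been transected 1 day earlier, and the contralateral and ipsilateral ganglia each gave 1 library. The conditional knockout (cKO) mice, H61, H64, H95, H99 and H100, were Ahr fl/fl Thy1CRE-ERT2/EYFP: both alleles of Ahr, which encodes the aryl hydrocarbon receptor, were floxed, and a tamoxifen-inducible Cre with a yellow fluorescent protein was driven by the Thy1 promoter. The control mice, H62, H63, H65, H96 and H97, were Ahr f/f or f/+, and their sample titles call them wildtype. Mice of both genotypes received tamoxifen, 100 mg/kg on 5 days from an age of 17 weeks, with surgery 4 weeks later. Tamoxifen and surgery were thus shared by all 4 groups of 5 libraries. Floxed Ahr alleles were present in all groups too, though a control mouse may carry only 1. The transgene limits recombination to Thy1-expressing cells, while the libraries hold RNA of all cells of the ganglia. A treatment label speaks of spinal cord injury, and the protocol's sciatic nerve transection was followed. One title gives a shortened mouse number, for which the library name was used.

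Libraries held 76.2 to 118.5 M (mega) exonic counts, and mice of a group varied beyond counting error, at 5.31 to 58.3 units of chi-square per degree of freedom in 40 pairs of libraries. Ahr had 21.3 to 27.2 CPM (counts scaled to the library total with TMM factors) in control and 19.5 to 21.0 CPM in cKO contralateral libraries, and 30.2 to 38.1 and 28.9 to 36.8 CPM in the ipsilateral ones. Its log2 fold change of cKO against control was -0.25 contralaterally and -0.11 ipsilaterally (edgeR adjusted p 0.103 and 1), over all exons and all cells of the ganglia. Atf3, a transcription factor induced by axon injury, rose in every mouse, from 8.46 to 13.8 CPM in contralateral to 370 to 462 CPM in ipsilateral libraries. All 14 sensory neuron markers were detected, with a summed level of 12405 to 15148 CPM over the 20 libraries. Skeletal muscle markers, a sign of attached tissue, summed to 5.06 to 1933 CPM, with the highest value in the contralateral library of cKO mouse H100.

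Neurotrophins bind Trk receptor tyrosine kinases and the shared receptor p75NTR. Bdnf protein acts through TrkB, and the proteins of Ntf3 and Ntf5 (neurotrophin-3 and neurotrophin-4/5) act mainly through TrkC and TrkB. GDNF-family ligands bind a GFRα coreceptor that engages the kinase Ret: Gdnf pairs with Gfra1, Nrtn with Gfra2 and Artn with Gfra3. Neuregulins bind ErbB3 or ErbB4, and Nrg1 displayed on axons is the signal that controls Schwann cell survival and myelin thickness. Sensory neurons receive much of their neurotrophic support from their targets, and they also make some of these ligands themselves, Bdnf in nociceptors being the classical case.

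Promoter sequence is shown because several of these ligands moved after injury, and because the targeted receptor binds DNA. RefSeq windows of GRCm38.p6, from 250 bases before to 50 bases after each start, were searched for 6 of the 9 ligands: 7 windows of Bdnf, 2 each of Ntf3 and Gdnf, and 1 each of Artn, Nrtn and Nrg3. The search covered both strands and looked for GCGTG, the core that the aryl hydrocarbon receptor binds with its partner Arnt, TGANTCA, the AP-1 site bound by Fos and Jun proteins, and TGACGTCA, the cAMP response element bound by CREB and ATF proteins. Of 32851 promoter windows of this length, 32.4% held GCGTG, 7.81% held TGANTCA and 1.79% held TGACGTCA. The 3 windows shown are the Bdnf window with an AP-1 match, the Bdnf window with 2 matches to the receptor core, and the Ntf3 window with 1 such match, since Bdnf and Ntf3 had the highest and the lowest fold changes of the ligands called in both genotypes. Capitals mark the matches, and CACGC is GCGTG on the other strand. They lie at chr2:109676782-109677081 (plus strand), chr2:109692186-109692485 (plus strand) and chr6:126166695-126166994 (minus strand), and are written 5′ to 3′ on the strand of the gene.
Bdnf, start 2: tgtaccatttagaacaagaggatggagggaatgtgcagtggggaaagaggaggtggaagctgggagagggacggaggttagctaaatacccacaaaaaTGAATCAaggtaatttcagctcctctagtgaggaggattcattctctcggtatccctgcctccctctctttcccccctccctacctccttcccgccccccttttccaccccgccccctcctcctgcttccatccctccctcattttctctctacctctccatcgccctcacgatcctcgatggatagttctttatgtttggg
Bdnf, start 3: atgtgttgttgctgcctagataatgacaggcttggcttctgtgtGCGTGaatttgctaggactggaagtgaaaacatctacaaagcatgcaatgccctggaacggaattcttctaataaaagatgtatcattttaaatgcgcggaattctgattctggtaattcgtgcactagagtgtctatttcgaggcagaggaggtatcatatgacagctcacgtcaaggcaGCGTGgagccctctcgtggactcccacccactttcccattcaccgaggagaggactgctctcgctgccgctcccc
Ntf3, start 1: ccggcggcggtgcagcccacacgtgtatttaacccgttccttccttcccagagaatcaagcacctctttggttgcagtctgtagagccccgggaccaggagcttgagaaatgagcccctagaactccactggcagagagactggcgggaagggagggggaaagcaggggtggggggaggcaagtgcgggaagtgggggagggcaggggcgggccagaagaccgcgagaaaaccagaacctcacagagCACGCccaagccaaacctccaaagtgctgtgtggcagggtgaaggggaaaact
Window 5 of Bdnf, window 1 of Gdnf and the window of Nrtn also held GCGTG (1, 2 and 3 matches), and 0 of the 14 windows held TGACGTCA. The remaining windows held no match to any of these motifs. Bdnf had the most windows, and so the most places for a match. A match to so short a motif is a description of the letters. The counts are per gene, so they do not say from which start the Bdnf RNA came.

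After transection Bdnf rose and Ntf3, Nrg1 and Nrg2 fell in the ipsilateral ganglia of both genotypes. Bdnf rose 2.15-fold in control and 2.47-fold in cKO mice, while Ntf3 fell to 0.311 and 0.391 of its contralateral level. In addition Artn was called higher in control mice and Nrtn lower in cKO mice, while Nrg3 and Gdnf were called in neither. Called means an adjusted p under 0.05 in edgeR's quasi-likelihood test, adjusted over all 28564 genes tested. The filter on low counts kept 8 of the 9 ligands and removed Ntf5. In control mice 5 of the 8 were called, 2 higher and 3 lower, against 29.9% of all genes tested (13.8% higher and 16.0% lower). In cKO mice 5 of the 8 were called as well, 1 higher and 4 lower, against 31.3% of all genes (16.2% higher and 15.1% lower). The median log2 fold change of the 8 ligands was -0.10 in control and -0.21 in cKO mice, beside 0.00 and -0.03 over all genes tested. The ranges of the 5 ipsilateral and 5 contralateral libraries did not overlap for 4 of the 8, Bdnf, Ntf3, Nrg1 and Nrg2, in either genotype. The same was true of 23.6% of all genes tested in controls and of 20.2% in cKO mice. In whole ganglia fewer cells of a type and less RNA per cell cannot be told apart, and this holds for each ligand below.

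**Figure D1:**
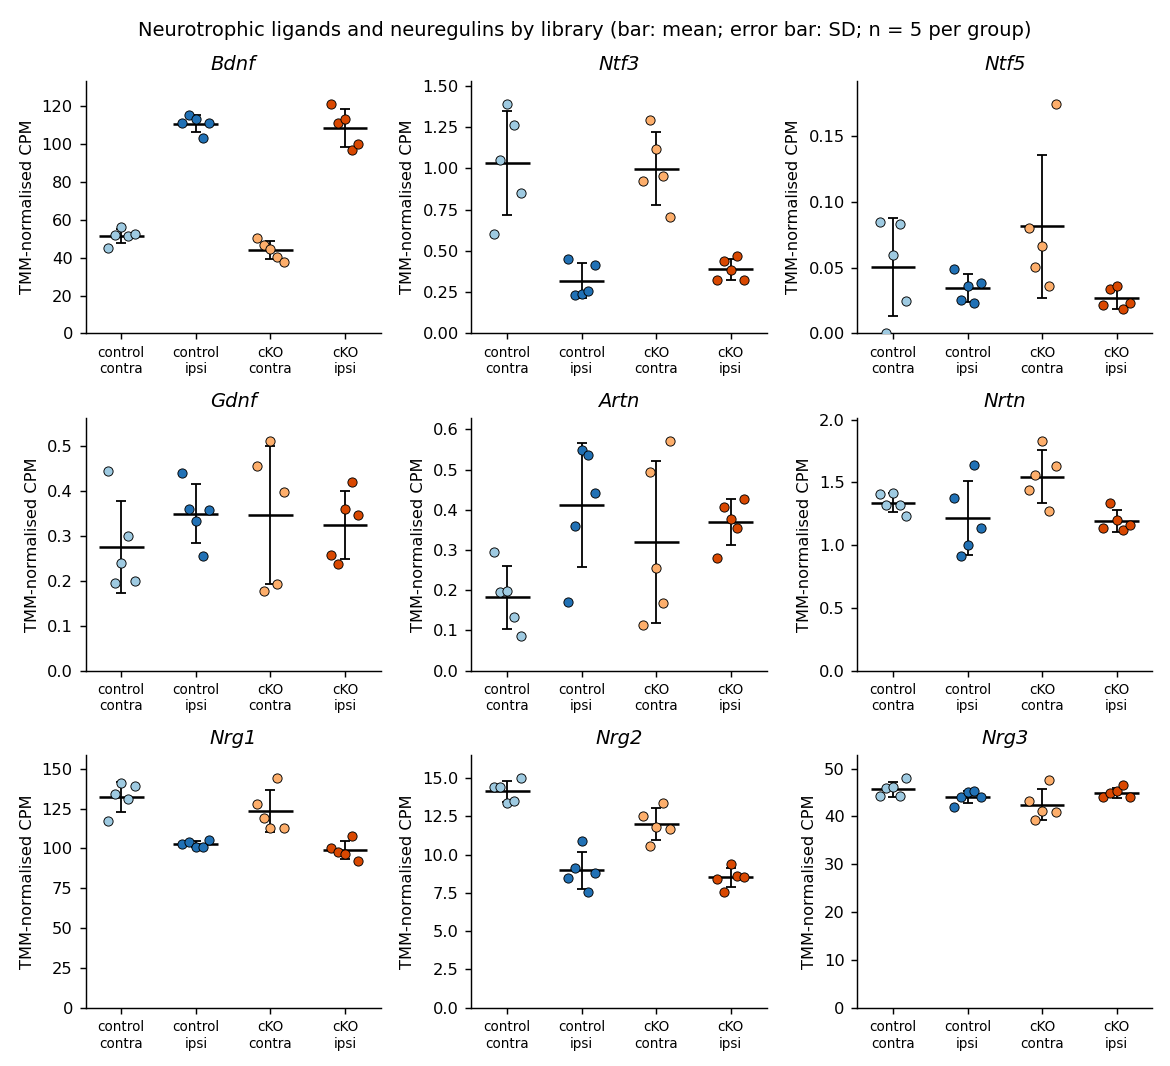
TMM-normalised CPM of the 9 ligands, 1 panel per gene with its own linear axis from 0; each point is a library, the bar and error bar are the mean and SD of 5 mice, and columns are the contralateral and ipsilateral sides of control and cKO mice. The sides separate fully for Bdnf, Ntf3, Nrg1 and Nrg2 in both genotypes, while the genotypes overlap on each side for each of the 9 ligands.

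Bdnf was the most responsive of the abundant ligands. In control mice H62, H63, H65, H96 and H97 it had 45.2, 51.7, 56.1, 51.3 and 52.6 CPM contralaterally and 111, 115, 113, 103 and 111 CPM ipsilaterally. In cKO mice H61, H64, H95, H99 and H100 it had 50.1, 46.9, 44.4, 40.5 and 37.8 CPM contralaterally and 121, 111, 113, 96.5 and 99.9 CPM ipsilaterally. Every ipsilateral library lay above every contralateral one, and the lowest ipsilateral value, 96.5 CPM, was well over the highest contralateral value, 56.1 CPM. The control mean rose from 51.4 ± 3.96 to 111 ± 4.43 CPM, and the cKO mean from 43.9 ± 4.92 to 108 ± 9.98 CPM (SD, n = 5 each). The log2 fold changes were 1.11 (SE 0.0728, edgeR adjusted p 4.14e-10) and 1.30 (SE 0.0733, edgeR adjusted p 3.06e-11). Within a mouse the ipsilateral level was 2.01 to 2.46 times the contralateral one in controls and 2.37 to 2.65 times in cKO mice, so all 10 mice showed the rise, and 1 control mouse, H62, lay within the cKO range. Within the mice numbered H61 to H65 and H95 to H100 the log2 ratio of the mean CPM of the sides was 1.15 and 1.04 in controls and 1.26 and 1.34 in cKO mice. Ranked by log2 fold change over all genes tested, Bdnf was number 678 from the top in control and 541 in cKO mice. Its counts, 3043 to 13126 per library, left counting error small.

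The exons of Bdnf overlap those of the antisense gene Gm45346 by 896 bases in GENCODE M21. Gm45346 rose as well, from 1.37 ± 0.266 to 6.71 ± 0.191 CPM in control mice and in cKO mice from 1.13 ± 0.140 to 6.02 ± 0.954 CPM (SD, n = 5), with log2 fold changes of 2.29 and 2.42 (edgeR adjusted p 8.99e-12 and 3.88e-12). The library kit keeps the strand, but the strand setting of the counting is not given in the sources used here, so reads of this pair may not be told apart. Over all libraries Gm45346 had 7171 counts and Bdnf 146863.

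Ntf3, which supports proprioceptive and mechanoreceptive neurons through TrkC, was the ligand with the lowest fold change of the 8 tested. In the control mice in the same order it had 0.603, 1.05, 1.39, 1.26 and 0.848 CPM contralaterally and 0.452, 0.232, 0.239, 0.256 and 0.414 CPM ipsilaterally. In the cKO mice it had 0.921, 1.29, 1.12, 0.953 and 0.708 CPM contralaterally and 0.322, 0.440, 0.386, 0.467 and 0.324 CPM ipsilaterally. All 10 ipsilateral libraries lay below all 10 contralateral ones, and the fall was smallest in control mouse H62. The control mean fell from 1.03 ± 0.317 to 0.319 ± 0.106 CPM, and the cKO mean from 0.999 ± 0.221 to 0.388 ± 0.0659 CPM (SD, n = 5 each). The fitted log2 fold changes were -1.69 (SE 0.236, edgeR adjusted p 1.09e-05) and -1.36 (SE 0.230, edgeR adjusted p 1.00e-04). Among the 28564 genes tested Ntf3 had the 21st lowest log2 fold change in control mice and the 211th lowest in cKO mice. Per mouse the ipsilateral level was 0.172 to 0.750 of the contralateral one in controls and 0.341 to 0.490 in cKO mice. The 2 ranges of mouse numbers gave log2 ratios of mean CPM of -1.72 and -1.65 in control and -1.54 and -1.24 in cKO mice. Its counts were low, 18 to 152 per library, and the precision is limited accordingly.

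Ntf5, the remaining neurotrophin, was at the limit of detection with 0 to 14 counts per library. It had 0 to 0.0846 CPM in control contralateral and 0.0233 to 0.0488 CPM in control ipsilateral libraries. In cKO mice it had 0.0362 to 0.174 CPM contralaterally and 0.0187 to 0.0359 CPM ipsilaterally. The 1 library without a count, contralateral of control mouse H63, allows up to 0.0367 CPM (3 counts, counting error only). With no filter on low counts its log2 fold changes were -0.56 in control (edgeR adjusted p 0.650) and -1.53 in cKO mice (unadjusted p 0.0164, adjusted p 0.102), so neither was called. It was lower ipsilaterally in 5 of 5 cKO mice (ratios of 0.133 to 0.668), and the CPM ranges of the sides did not overlap. The raw counts did overlap, with 3 to 14 contralaterally and 2 to 4 ipsilaterally, in libraries of different size.

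The GDNF-family ligands were scarce as well, at under 2 CPM in every library. Nrtn, the ligand of Gfra2, had 1.41, 1.32, 1.42, 1.32 and 1.23 CPM in the contralateral and 1.38, 0.913, 1.00, 1.64 and 1.14 CPM in the ipsilateral libraries of control mice. In cKO mice it had 1.44, 1.56, 1.83, 1.27 and 1.63 CPM contralaterally and 1.14, 1.34, 1.20, 1.12 and 1.16 CPM ipsilaterally. Nrtn was lower ipsilaterally in 5 of 5 cKO mice and 4 of 5 control mice, although the sides overlapped in both genotypes. The means went from 1.34 ± 0.0758 to 1.22 ± 0.297 CPM in control mice, a log2 fold change of -0.14 (SE 0.131, edgeR adjusted p 0.471). In cKO mice they fell from 1.55 ± 0.210 to 1.19 ± 0.0876 CPM (SD, n = 5), by 0.37 on the log2 scale (SE 0.130, edgeR adjusted p 0.0326). That call was lost without mouse H61 (-0.38, adjusted p 0.0686), H95 (-0.30, 0.144) or H100 (-0.34, 0.105), and with no filter on low counts (-0.36, 0.0719), so it is close to the threshold. In controls the log2 ratio of mean CPM was -0.33 over H62, H63 and H65 and 0.12 over H96 and H97; in cKO mice it was -0.28 over H61 and H64 and -0.44 over H95, H99 and H100.

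Artn, the ligand of Gfra3, had 0.296, 0.196, 0.199, 0.133 and 0.0873 CPM contralaterally and 0.171, 0.360, 0.549, 0.536 and 0.443 CPM ipsilaterally in control mice. In cKO mice it had 0.114, 0.494, 0.255, 0.169 and 0.571 CPM contralaterally and 0.279, 0.407, 0.377, 0.355 and 0.428 CPM ipsilaterally. It was higher ipsilaterally in 4 of 5 control mice, all but H62, and in 3 of 5 cKO mice, all but H64 and H100. The means rose from 0.182 ± 0.0789 to 0.412 ± 0.155 CPM in control mice (SD, n = 5), a log2 fold change of 1.17 (SE 0.389, edgeR adjusted p 0.0265). In controls the log2 ratio of mean CPM was 0.65 in the mice numbered H62 to H65 and 2.15 in H96 and H97. The cKO means were 0.321 ± 0.202 and 0.369 ± 0.0574 CPM, a log2 fold change of 0.21 (SE 0.372, edgeR adjusted p 0.721). The contralateral cKO level spread most, from 0.114 CPM in H61 to 0.571 CPM in H100. The library of H100 had the most muscle marker RNA (1933 CPM), while that of H64, with 0.494 CPM of Artn, had 23.5 CPM of it. The fibroblast marker sums were 2236, 1980 and 1685 CPM in H64, H95 and H100 and 1003 and 935 CPM in H61 and H99, whose Artn levels were the lowest, and the erythroid sums were 833, 580 and 621 CPM against 562 and 272 CPM. Control mouse H62 had the highest contralateral Artn level and the highest fibroblast sum (1356 CPM) of its group. In that group H65, with 0.199 CPM of Artn, had the lowest fibroblast sum (802 CPM), and H63, with 0.196 CPM, had 1065 CPM. On the control ipsilateral side H65 had the highest Artn level with the lowest fibroblast sum (924 CPM), and H62 the lowest Artn level with 1133 CPM. H96, with 0.536 CPM of Artn on that side, had the highest fibroblast sum (1519 CPM). The part of these tissues in the Artn level was not tested. With 7 to 48 counts per library, the control call was lost without H63 (1.25, adjusted p 0.0560), H65 (1.09, 0.0903), H96 (0.97, 0.135) or H97 (1.00, 0.109).

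Gdnf, the ligand of Gfra1, ranged from 0.177 CPM to 0.511 CPM over the 20 libraries and passed the test in neither genotype. Its means were 0.275 ± 0.103 and 0.349 ± 0.0656 CPM in control and 0.347 ± 0.153 and 0.324 ± 0.0757 CPM in cKO mice, contralateral first. The fitted differences were 0.33 (SE 0.289, edgeR adjusted p 0.441) and -0.10 (SE 0.284, adjusted p 0.832) on the log2 scale. Gdnf had 14 to 46 counts per library.

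Of the 3 neuregulins among the ligands, Nrg1 and Nrg2 fell after transection and Nrg3 was not called. Nrg1 had 117, 134, 141, 131 and 139 CPM contralaterally and 103, 104, 101, 101 and 105 CPM ipsilaterally in control mice. In cKO mice it had 128, 119, 113, 144 and 113 CPM contralaterally and 100, 97.7, 96.6, 108 and 92.1 CPM ipsilaterally. The ipsilateral libraries were lower in all 10 mice, and in control mice they were also closer together, at 103 ± 1.90 CPM against 132 ± 9.34 CPM (SD, n = 5). The cKO means were 124 ± 13.0 and 98.8 ± 5.71 CPM. Nrg1 changed by -0.36 (SE 0.0593, edgeR adjusted p 6.61e-05) in control and by -0.32 (SE 0.0592, edgeR adjusted p 2.48e-04) in cKO mice on the log2 scale. The 2 ranges of mouse numbers gave -0.35 and -0.39 in control and -0.33 and -0.32 in cKO mice as log2 ratios of mean CPM. The counts sum all isoforms of Nrg1, which include membrane-bound and secreted forms. In GENCODE M21 the exons of Nrg1 overlap by 482 bases those of Gm26578, a long intergenic non-coding RNA gene on the opposite strand. Gm26578 is not in the count table, so its reads could not be set beside those of Nrg1.

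Nrg2, a paralogue that also binds ErbB receptors, fell further. It had 14.4, 14.4, 13.4, 13.5 and 15 CPM contralaterally and 8.51, 9.12, 10.9, 7.55 and 8.78 CPM ipsilaterally in control mice. In cKO mice it had 12.5, 10.6, 11.8, 13.4 and 11.7 CPM contralaterally and 8.42, 7.59, 9.40, 8.64 and 8.53 CPM ipsilaterally. The sides did not overlap in either genotype, with H65 the mouse that fell least in control and H95 in cKO mice (ipsilateral to contralateral ratios of 0.812 and 0.795). The mean fell from 14.2 ± 0.673 to 8.97 ± 1.23 CPM in control mice, and in cKO mice from 12.0 ± 1.05 to 8.51 ± 0.646 CPM (SD, n = 5 each). These were log2 fold changes of -0.66 (SE 0.0797, edgeR adjusted p 1.77e-06) and -0.50 (SE 0.0796, edgeR adjusted p 5.44e-05). Within the 2 ranges of mouse numbers the log2 ratios of mean CPM were -0.57 and -0.80 in control and -0.53 and -0.48 in cKO mice. By rank Nrg2 had the 783rd lowest log2 fold change in control and the 2119th lowest in cKO mice.

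Nrg3, which binds ErbB4, differed little between sides. Its means were 45.7 ± 1.56 and 44.1 ± 1.29 CPM in control and 42.4 ± 3.26 and 45.0 ± 1.04 CPM in cKO mice (SD, n = 5), contralateral first. It was lower ipsilaterally in 4 of 5 control mice and higher in 4 of 5 cKO mice, with ratios from 0.917 to 1.14 over the 10 mice. Its log2 fold changes were -0.05 (SE 0.0414, edgeR adjusted p 0.399) and 0.08 (SE 0.0414, adjusted p 0.136). Without cKO mouse H99, whose contralateral library had the highest Nrg3 level of its group (47.7 CPM), the cKO value was 0.12 with an edgeR adjusted p of 0.0108, so H99 decided whether Nrg3 was called.

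**Figure D2:**
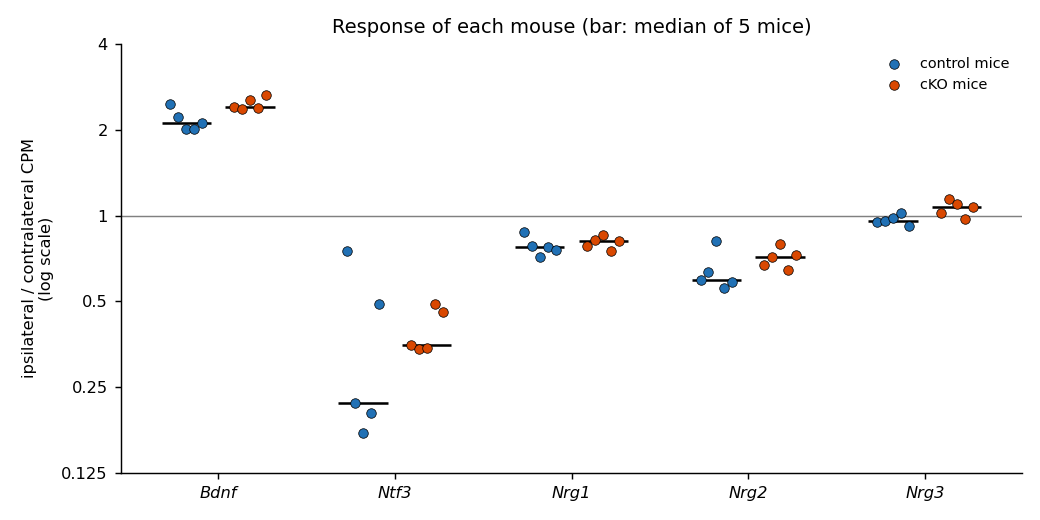
Ratio of the ipsilateral to the contralateral CPM of 5 ligands on a log axis; each point is a mouse, control in blue and cKO in orange, the bar is the median of 5 mice and the grey line marks a ratio of 1. All 10 mice lie above 1 for Bdnf and below 1 for Ntf3, Nrg1 and Nrg2, while Nrg3 lies on both sides of 1.

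To compare levels between genes, CPM was divided by the length of the merged exons in GENCODE M21, from 1023 bases for Nrtn to 10351 bases for Nrg1. On this scale Nrg1 was the most abundant ligand contralaterally (12.8 ± 0.903 CPM per kb in control mice, SD, n = 5), followed by Bdnf (8.27 ± 0.636), Nrg3 (6.70) and Nrg2 (4.51). Ipsilaterally Bdnf came first with 17.8 ± 0.712 CPM per kb in control mice and Nrg1 second with 9.93, and the cKO mice gave the same order (17.4 and 9.55). Nrtn at 1.31 and Ntf3 at 0.602 CPM per kb followed contralaterally in control mice. Artn (0.0757) and Gdnf (0.0750) were lower still, and their libraries overlapped. In cKO contralateral libraries Bdnf (7.07) and Nrg3 (6.23) also overlapped. Of the summed CPM per kb of Nrg1, Nrg2 and Nrg3, Nrg1 made up 53.2% contralaterally and 51.6% ipsilaterally in control mice, Nrg2 18.8% and 14.8%, and Nrg3 28% and 33.6%. In cKO mice the shares were 54.2% and 50.6% for Nrg1, 17.4% and 14.4% for Nrg2, and 28.4% and 35.0% for Nrg3. The sum itself was 24 ± 1.11 and 19.3 ± 0.440 CPM per kb in control and 22.0 ± 2.00 and 18.9 ± 0.714 CPM per kb in cKO mice.

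Between genotypes 0 of the 8 ligands were called. On the contralateral side 21 genes (0.0735% of those tested) were called and 5006 had an unadjusted p under 0.05. The log2 fold changes of cKO against control were -0.23 for Bdnf (SE 0.0726, edgeR adjusted p 0.135) and -0.24 for Nrg2 (SE 0.0791, adjusted p 0.141). They were -0.11 for Nrg3 and -0.10 for Nrg1 (edgeR adjusted p 0.193 and 0.400), so Bdnf, Nrg1, Nrg2 and Nrg3 had lower cKO means. Artn at 0.80 (SE 0.396, edgeR adjusted p 0.303), Gdnf at 0.33 and Nrtn at 0.20 had higher cKO means, and Ntf3 differed by -0.05 (SE 0.217). The genotypes overlapped for all 8 tested ligands on this side, where 1.52% of all genes did not overlap. For Nrg2 the overlap was 1 library, that of H99, and the other 4 cKO libraries lay below every control library. The median of the 8 ligands was -0.08, beside -0.01 over all genes.

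The contralateral values of the neuregulins depended on cKO mouse H99. Its contralateral library had the highest Nrg1 (144 CPM), Nrg2 (13.4 CPM) and Nrg3 (47.7 CPM) of the 5 cKO libraries. Without H99 all 3 were called lower in cKO, Nrg1 at -0.16 (edgeR adjusted p 0.0356), Nrg2 at -0.28 (0.0370) and Nrg3 at -0.15 (0.00931). In the same setting 3326 of the 28818 genes tested were called, 1878 of them lower in cKO. H99 also had the lowest contralateral sums of the fibroblast and macrophage markers of its group, 935 and 107 CPM, where the other 4 cKO mice had 1003 to 2236 and 133 to 274 CPM. Its neutrophil (21.1 CPM), lymphocyte (3 CPM), erythroid (272 CPM) and muscle (7.62 CPM) marker sums were the lowest of the group too. Its Schwann cell (4273 CPM), satellite glia (1680 CPM) and endothelial (124 CPM) sums were not, as the lowest were 3571, 1520 and 112 CPM. The sensory neuron sum of H99 was the highest (15148 CPM, the others 12945 to 14031 CPM). Over all contralateral libraries the fibroblast list had 6 of 6 markers with a higher cKO mean and the macrophage list 13 of 13, with 0 called in either and summed levels of 802 to 1356 against 935 to 2236 CPM and of 108 to 190 against 107 to 274 CPM. The neutrophil (7 of 7, median log2 fold change 0.73), endothelial (7 of 7, 0.17), erythroid (5 of 5, 0.47) and muscle (8 of 9, 1.26) markers mostly had higher cKO means as well, with 0 called, and the lymphocyte markers lower ones (9 of 10, -0.48). No marker of these lists was at 0 in all libraries. Their part in the neuregulin values was not tested.

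On the ipsilateral side 2 genes were called over the whole table (0.00700% of those tested), neither of them a ligand, and 674 had an unadjusted p under 0.05. The log2 fold changes of the ligands were small: -0.03 for Bdnf, -0.06 for Nrg1, -0.08 for Nrg2, 0.03 for Nrg3 and -0.03 for Nrtn. The low genes ranged from -0.16 for Artn to 0.28 for Ntf3, with -0.11 for Gdnf, and every edgeR adjusted p rounded to 1. The genotypes overlapped for each tested ligand, where 0.599% of all genes did not.

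The interaction, which asks whether the response to injury differed between genotypes, gave 0 called ligands and 0 called genes (0% of 28564), while 2799 genes had an unadjusted p under 0.05 in edgeR and the smallest adjusted p was 0.485. With DESeq2 it gave 11 calls over all genes and 0 among the ligands. It was 0.20 for Bdnf (SE 0.102, edgeR adjusted p 0.530), 0.16 for Nrg2 (SE 0.112, 0.628), 0.13 for Nrg3 (SE 0.0585, 0.498) and 0.04 for Nrg1 (SE 0.0837, 0.891) on the log2 scale, cKO minus control. For the low genes the errors were wide, with 0.33 for Ntf3 (SE 0.327), -0.23 for Nrtn (SE 0.184), -0.43 for Gdnf (SE 0.405) and -0.96 for Artn (SE 0.538). Artn was called in control and Nrtn in cKO mice, but their difference between genotypes was not, with interaction adjusted p of 0.557 and 0.680 (edgeR).

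**Figure D3:**
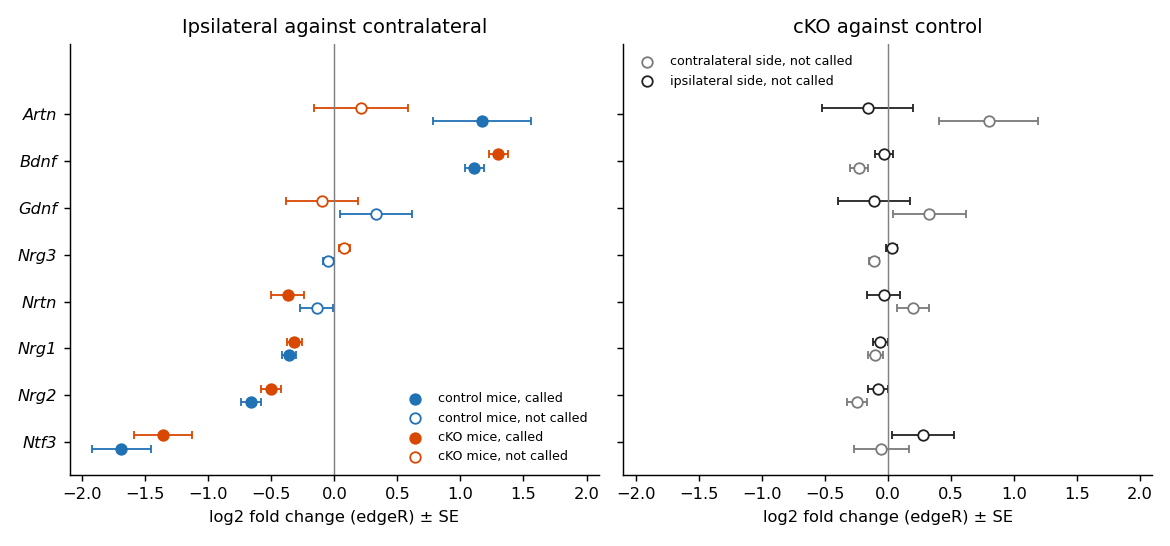
Log2 fold changes from edgeR with their standard errors for the 8 tested ligands: ipsilateral against contralateral in each genotype (left) and cKO against control on each side (right), with filled symbols for an adjusted p under 0.05. Bdnf lies right of 0 and Ntf3, Nrg1 and Nrg2 left of 0 in both genotypes, and each symbol in the right panel is open.

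Other genes whose levels ran most like those of Bdnf, Ntf3 and Nrg2, the 3 ligands with the largest control fold changes among those called the same way in both genotypes, were found by Pearson correlation of log2 CPM over the 20 libraries, among 17309 or 17310 genes with a symbol and a mean of at least 1 CPM. Bdnf ran closest with Sbno2 (0.994), Tifa (0.993) and its own antisense gene Gm45346 (0.990). For Ntf3 the closest were Nog (0.930), Rwdd2a (0.923) and Msrb2 (0.918). For Nrg2 they were Bpnt1 (0.974), Svop (0.967) and 1700019D03Rik (0.965). The 20 libraries share the 2 sides, so genes that change strongly with injury score high, and the values are a description.

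The receptors, related ligands and processing enzymes of these pathways were read beside the ligands. Of 38 such genes 36 were tested; 12 were called higher and 8 lower in control mice, 10 higher and 4 lower in cKO mice (beside 29.9% and 31.3% of all genes called), and 0 in either genotype comparison or the interaction. Among 11 tested related ligands the median log2 fold change was 0.04 in control and 0.10 in cKO mice, with 4 called higher and 3 lower in control and 3 higher and 2 lower in cKO mice. Areg, an EGF-family ligand, had the highest fold change, from 0.349 ± 0.0879 to 6.43 ± 1.08 CPM in control mice and in cKO mice from 0.301 ± 0.0701 to 6.54 ± 0.954 CPM (log2 fold changes of 4.21 and 4.43, edgeR adjusted p 1.41e-13 and 7.71e-14). Btc, another EGF-family ligand, fell by 0.66 and 0.58 on the log2 scale. Nrg4, a further neuregulin outside the naming rule and named after its values were seen, fell from 8.16 ± 0.239 to 6.22 ± 0.376 CPM in control mice and in cKO mice from 8.10 ± 0.361 to 6.17 ± 0.285 CPM (-0.39 in each, edgeR adjusted p 2.50e-06 and 2.30e-06). Epgn, at under 0.3 CPM on average in each group, was called in cKO mice (1.59, edgeR adjusted p 0.00409) and had 1.11 in control mice (adjusted p 0.0521).

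The Trk receptors of the neurotrophins were not called. Ntrk2, the gene of TrkB, had means of 262 ± 14.6 and 254 ± 6.29 CPM in control and 246 ± 23.7 and 247 ± 5.27 CPM in cKO mice, contralateral first. Ntrk3, the gene of TrkC, had log2 fold changes of -0.14 and -0.07 (edgeR adjusted p 0.418 and 0.733), while its ligand Ntf3 fell. Of the 6 tested receptors of this group Sorcs2 was called higher in both genotypes (0.41 and 0.46), and Ngfr, the gene of p75NTR, had -0.10 in control mice (called, edgeR adjusted p 0.0450) and -0.07 in cKO mice (adjusted p 0.167).

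Of 6 tested GDNF-family receptors 3 were called higher and 2 lower in control mice, beside 29.9% of all genes called. In cKO mice 4 were called higher and 2 lower, beside 31.3% of all genes. The coreceptors Gfra1 to Gfra4 were called in both genotypes. Ncam1 was called in cKO mice (0.31, edgeR adjusted p 6.62e-04) and had 0.15 in control mice (adjusted p 0.0871). Gfra1 rose from 180 ± 10.1 to 381 ± 18.6 CPM in control mice and in cKO mice from 165 ± 11.2 to 387 ± 21.4 CPM (1.08 and 1.23), while Gdnf itself was not called. Gfra2 fell by 0.59 in control and 0.29 in cKO mice on the log2 scale, Gfra3 rose by 0.32 and 0.41, and Gfra4 fell by 0.20 and 0.29. Ret, the shared kinase, rose by 0.18 and 0.36 (edgeR adjusted p 0.0222 and 6.56e-05).

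Of the 4 ErbB receptors, Erbb2 was called higher in control mice (0.25, edgeR adjusted p 0.0427) and had 0.18 in cKO mice (adjusted p 0.145). Erbb3 and Erbb4, which bind the neuregulins, had log2 fold changes of 0.10 and 0.04 in control and 0.21 and -0.18 in cKO mice, with 0 calls. Among the 9 tested processing enzymes 3 were called higher and 2 lower in control and 2 higher in cKO mice. Plat, the gene of tissue plasminogen activator, which takes part in cleaving pro-BDNF, rose by 0.63 and 0.54. Adam19, a protease that can shed neuregulin, rose by 0.29 and 0.54, and Adam17, another sheddase, rose by 0.25 in control mice and had 0.11 in cKO mice (edgeR adjusted p 0.313). Bace1, the secretase that cleaves Nrg1, fell by 0.18 in control mice (edgeR adjusted p 0.00281) and had -0.10 in cKO mice (adjusted p 0.0779).

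**Figure D4:**
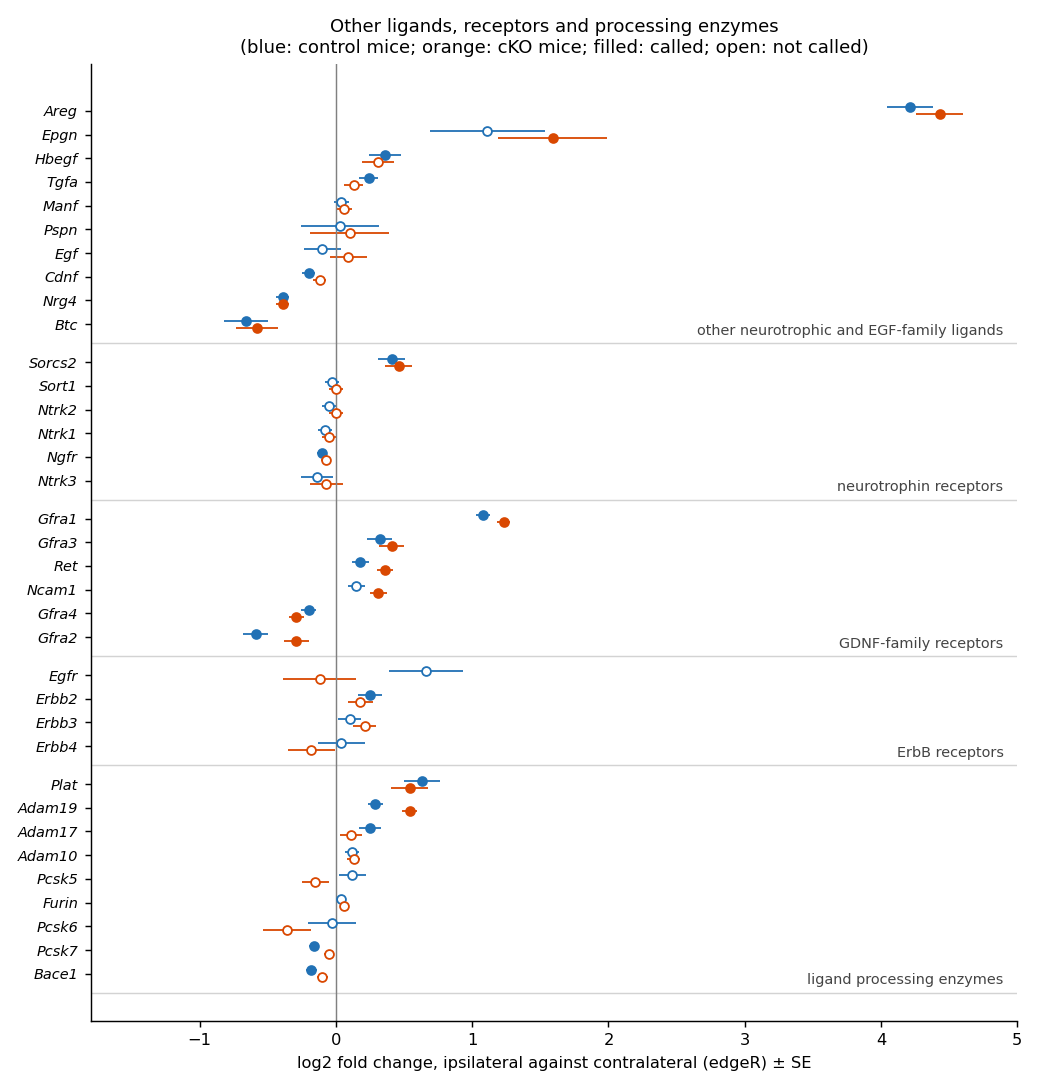
Log2 fold change after transection, with its standard error, of the receptors, related ligands and processing enzymes in control and cKO mice, filled where the edgeR adjusted p is under 0.05; 1 of the 36 tested genes is not drawn. Areg lies furthest to the right in both genotypes, followed by Epgn and Gfra1, and the Trk receptors lie near 0.

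Markers of the cells in the ganglia are given for the injury comparison. Of 14 sensory neuron markers 5 were called lower in each genotype and 0 higher, beside 16.0% and 15.1% of all genes called lower, with median log2 fold changes of -0.02 in control and -0.12 in cKO mice. The summed level of the neuron markers was 13088 to 14935 CPM contralaterally and 12981 to 14503 CPM ipsilaterally in control mice, and 12945 to 15148 and 12405 to 13633 CPM in cKO mice. Markers of Schwann cells, which respond to Nrg1, had medians of 0.08 and 0.05 over 10 genes, with 1 called higher in control and 0 in cKO mice. Satellite glia markers had medians of 0.13 and 0.01, with 2 of 6 called higher in each. Macrophage markers had medians of 0.41 and 0.15, with 13 of 13 above 0 and 2 called in control mice, and 9 of 13 above 0 and 0 called in cKO mice. Endothelial markers had medians of 0.40 and 0.07, with 7 of 7 above 0 and 3 called in control mice and 0 called in cKO mice. Fibroblast markers had medians of 0.32 and -0.48, with 6 of 6 above 0 in control and 5 of 6 below 0 in cKO mice, and neutrophil markers 0.57 and -0.12, with 0 called in either list. Lymphocyte markers had medians of -0.19 and -0.32, erythroid markers 0.03 and -0.41, and muscle markers 0.43 and -3.08, with 1 lymphocyte marker called higher in cKO mice and 0 others. The part of cell composition in the ligand values was not tested.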

How the data were processed

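RNA from the ganglia was made into stranded mRNA libraries read as paired 150 base reads, per the labels' protocols. The authors deposited a table of exonic counts, whole numbers that are not normalized. HISAT2 and Picard, and the builds mm10 and mm39, are named in the submitters' processing notes without their roles. The counting program, annotation release and strand setting are not given in the sources used here. A deposited FPKM table of the same libraries was not used.

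Symbols were assigned through GENCODE M21 identifiers: 51487 of 78258 genes matched, with 98.1% of the counts. The filter filterByExpr (minimum count 10, minimum total 15) kept 28564 genes. All 20 libraries entered 1 fit with a mean per group, using edgeR 4.0.16 under R 4.3.3 with TMM scaling and the robust quasi-likelihood F-test. Benjamini-Hochberg adjustment ran over all tested genes in each of 5 comparisons. Values per library are TMM-normalised CPM with mean ± SD. The SE of an edgeR log2 fold change was derived from the test, as its absolute value divided by the square root of the F statistic. The test was checked on simulated counts, and the outcome of that check is not reported here. Replicates are separate mice. Reads carried no molecular identifiers, so limits from counts cover counting error only.

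The sides of a mouse are paired by its number. The correlation of their deviations from group means had a median of 0.186 (-0.0546 to 0.361), and 7 of 10 mice exceeded 0.1. Alternatives were RLE size factors, DESeq2 1.42.0, no filter, a mean of at least 1 CPM, only the libraries compared, the range of mouse numbers (H61 to H65 or H95 to H100) as a covariate, mouse as a replicate block, limma-voom 3.58.1 with mouse as a random effect, and leaving out each mouse. The 9 ligands, the gene lists and the naming rule were chosen with earlier results of these data known. Of each pathway list, the called genes with the largest fold changes in control mice were named, at most 4 per list, with the receptors of the ligands. One gene that this rule names is not reported here.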

Additional observations from a re-analysis of the deposited data

Results flagged for a closer look

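Bdnf in the ipsilateral library of control mouse H96 lay apart from the other 4 of its group: it had 103 CPM where the others had 111 to 115 CPM, a gap of 0.715 of the group's range, just over Dixon's critical value of 0.71 for 5 samples. This was the 1 such case among 36 groups of 5 values, where chance gives about 1.8. The library stayed above every contralateral one.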

How the results depend on the processing

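Of 657 log2 fold changes of the ligands under the alternatives, 635 kept their direction and their side of the threshold, 8 lost a call, 4 gained one and 10 changed sign. Bdnf, Ntf3, Nrg1 and Nrg2 kept their injury calls in both genotypes under every alternative that tested them. The mean of at least 1 CPM left Ntf3, Ntf5, Gdnf and Artn untested and kept Bdnf, Nrtn, Nrg1, Nrg2 and Nrg3. Of those kept, 3 were then called for injury in control mice, where 7846 of the 19364 genes tested were called. Leaving out a mouse gave 4 to 5 ligands called in control and 4 to 6 in cKO mice. For genotype on the contralateral side it gave 0 to 3, with 3 without H99, where 3326 of 28818 genes were called. It gave 0 ipsilaterally or for the interaction. With mouse as a replicate block the calls were 5, 5 and 0 for injury in control, injury in cKO and the interaction, and the block changed no call of a ligand (Artn 1.17, adjusted p 0.0380; Nrtn in cKO -0.37, 0.0361; edgeR).

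The values that changed sign were not called under any setting. Gdnf in cKO injury (-0.10) ran from -0.36 to 0.08 over the mice left out, Ntf3 between genotypes contralaterally (-0.05) from -0.19 to 0.10, and Bdnf ipsilaterally (-0.03) from -0.07 to 0.01. Ipsilateral Nrtn (-0.03) ran from -0.11 to 0.10, with 0.00 under limma-voom with the replicate block, and Nrg2 (-0.08) from -0.13 to 0.01. The cause was not tested. The 21 contralateral calls over all genes became 1041 with DESeq2 (667 of them higher, against 7 of 21), 50 with no filter, 45 at a mean of at least 1 CPM and 2 with only the libraries compared. Leaving out a mouse gave 4 (H95) to 3326 (H99). Ntf5, Gdnf and Artn had at most 48 counts per library; counting error and the spread between mice were not separated for them.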
